A study of Mus musculus with 11 samples.

Results

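The 35 genes described here encode the proteins of the junctions between epidermal cells: 6 of adherens junctions, 13 of desmosomes, 12 of tight junctions and 4 of gap junctions. They were chosen by symbol, as known components of these structures, from the 24421 genes listed in the count tables. The study asked how mouse epidermis closes a wound and what the transcription factor GRHL3 does in the keratinocytes of the wound front. RNA-seq and ATAC-seq, which maps open chromatin, were run on keratinocytes sorted as CD49f positive and as negative for CD45, CD31 and TER119. The strain label reads C57BL/6, and the study's methods give a C57BL/6J background. In *Grhl3*-cKO mice floxed *Grhl3* is deleted by a *Krt14*-driven Cre, which acts in keratinocytes, and their WT littermates are described as carrying the same Cre. Mice were 8 weeks old and of both sexes. Wounded samples came from the 1 mm margin of 4 mm punch wounds of back skin at day 3, and unwounded samples from skin distal to the wounds.

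Junctions hold keratinocytes together and let them exchange signals. Adherens junctions couple classical cadherins through catenins to actin, desmosomes couple desmosomal cadherins through plaque proteins to keratin filaments, tight junctions seal the space between cells of the granular layer, and gap junctions are channels built of connexins. Cells that migrate over a wound remodel these contacts while they move as a sheet.

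RNA-seq counts were available for 2 WT unwounded, 2 WT wounded, 1 unwounded and 2 wounded libraries, the last 2 groups labelled *Grhl3*-cKO. Counts on genes totalled 13497283 to 16807451 per library. Levels are given as CPM, counts scaled to each library's total on genes, always in the order of replicates 1 and 2. The targeted gene *Grhl3* did not separate the genotypes. It had 122 and 83.2 CPM in WT unwounded and 109.9 and 90.02 CPM in WT wounded keratinocytes. The unwounded library labelled *Grhl3*-cKO had 76.2 CPM and the wounded ones 116 and 104 CPM, so the groups overlapped. Counts are given per gene, so deleted and remaining exons cannot be told apart, and genotype is taken from the label. Why the level did not drop was not tested. The study reports that it checked the deletion by quantitative PCR between the loxP sites and by GRHL3 staining of the wound front.

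The unwounded library labelled *Grhl3*-cKO also differed in sex from the rest. It had 14854 counts of *Xist* and 0 counts over 4 Y-linked genes, while the other libraries had at most 32 counts of *Xist* and 2580 to 3589 counts over the Y-linked genes. Wounding, genotype and sex cannot be told apart in any comparison that uses it. Replicates differed by far more than counting error, their chi-square divided by its degrees of freedom being 29.2 for WT unwounded, 39.9 for WT wounded and 34.9 for wounded libraries labelled *Grhl3*-cKO. Nothing in the labels says that replicates came from separate animals, so the p-values measure only the spread between these samples.

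All libraries were keratinocyte libraries by their markers. The summed level of 6 basal keratinocyte genes, led by *Krt14*, was 34663 and 39054 CPM in WT unwounded, 30890.0 and 44746 CPM in WT wounded, 37006 CPM in the labelled *Grhl3*-cKO unwounded library and 42911 and 36239 CPM in the wounded ones. The sum of 6 suprabasal genes, led by *Krt1*, was 5843 and 6519 CPM in WT unwounded, 3345 and 4964 CPM in WT wounded, and 8775, 6196 and 7808 CPM in the libraries labelled *Grhl3*-cKO, the unwounded one first. Both WT wounded libraries were thus the lowest of all in suprabasal genes. The sum of 4 keratins of wounded epidermis, led by *Krt16*, was 4448 and 5557 CPM in WT unwounded, 6495 and 9644 CPM in WT wounded, and 2611, 6999.9 and 4834 CPM in the libraries labelled *Grhl3*-cKO. For 7 hair follicle genes, led by *Krt15*, it was 5756 and 5107 CPM in WT unwounded, 4499 and 3609 CPM in WT wounded, and 6661, 3639.8 and 4499.5 CPM in those labelled *Grhl3*-cKO. WT wounded replicate 2 was the highest in wound keratins and the lowest in hair follicle genes. Fewer cells of a type and less RNA per cell cannot be told apart in such bulk samples.

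Transcripts of cells that the sort removes were scarce. The summed level of 7 endothelial genes, led by *Pecam1*, was 1.55 and 2.74 CPM in WT unwounded, 22.8 and 9.92 CPM in WT wounded, and 0.815, 9.46 and 8.19 CPM in the libraries labelled *Grhl3*-cKO. For 6 mural and smooth muscle genes, led by *Acta2*, it was 1.29 and 3.93 CPM, 30.6 and 12.3 CPM, and 1.11, 3.81 and 8.96 CPM in the same order. Both sums were higher in every wounded WT library than in the unwounded ones. Fibroblast genes (6, led by *Col3a1*) summed to 28.7 and 14.5 CPM, 19.6 and 46.6 CPM, and 11.04, 25.6 and 37.8 CPM. Leukocyte genes (6, led by *Cd74*, with *Cd3e* and *Tyrobp* at 0 counts in every library) summed to 4.58 and 14.5 CPM, 10.7 and 32.3 CPM, and 8.15, 13.5 and 15.8 CPM. Melanocyte genes (5, led by *Dct*) reached at most 9.55 CPM and erythroid genes (4, led by *Alas2*, the globin genes at 0 counts) at most 0.910 CPM in any library. The part of these cells in the results below was not tested.

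Between WT wounded and WT unwounded libraries, 3 of 6 suprabasal genes tested were lower and 3 of 4 wound keratins higher at an unadjusted P under 0.05 by edgeR, and 0 of 6 basal genes passed. At the same threshold 4 of 7 hair follicle genes were lower, and 3 of 6 endothelial, 2 of 4 mural, 1 of 5 fibroblast, 2 of 3 leukocyte and 2 of 4 melanocyte genes tested were higher. Over all genes tested 3.18% were higher and 1.67% lower. Between the wounded genotypes, 3 of 6 suprabasal genes were higher in the libraries labelled *Grhl3*-cKO, against 1.96% of all genes tested, and 1 of 4 wound keratins, 1 of 7 hair follicle genes and 2 of 4 mural genes were lower, against 2.08%.

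Junction genes differed widely in level. Per kilobase of exon, the mean level over the 7 libraries was highest for *Dsp* (1322 CPM per kb), whose product desmoplakin anchors keratin filaments, and for *Perp* (1206 CPM per kb), a tetraspan membrane protein of desmosomes. Next on this scale came the desmosomal cadherin *Dsc3* (476), plakoglobin *Jup* (439), plakophilin *Pkp1* (324) and E-cadherin *Cdh1* (271). The gap junction gene *Gja1* (167), the catenins *Ctnna1* (143) and *Ctnnb1* (139.7) and the claudin *Cldn1* (134) followed. At the other end stood *Pkp2* (0.441), *Cldn23* (0.212) and *Cldn7* (0.0594), all in CPM per kb. *Cldn7* had 9 counts in WT wounded replicate 1, 1 count in the labelled *Grhl3*-cKO unwounded library and 0 in the others, where 0 counts allow a level of up to 0.178 to 0.210 CPM (3 counts, counting error only). It is the member that did not pass the filter on low counts. The other 34 were tested.

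The spread over libraries differed among the abundant structural genes. The highest library exceeded the lowest by a ratio of 1.13 for *Ctnnb1*, 1.15 for *Ctnna1*, 1.17 for *Dsp*, 1.18 for *Pkp3*, 1.20 for *Dsc3*, 1.30 for *Pkp1*, 1.31 for *Jup*, 1.42 for *Cdh1*, 1.56 for *Perp*, 1.60 for *Cldn1* and 2.102 for *Vcl*. The ratio was 85.1 for *Gjb2*, 9.79 for *Gjb6* and 5.71 for *Cldn4*, but 2.03 for *Gja1* and 1.95 for *Gjb5*. Large ratios of *Pkp2* (9.73) and *Cldn23* (8.58) came with few counts. By that measure the connexins *Gjb2* and *Gjb6* were among the most variable members, and *Ctnnb1*, *Ctnna1*, *Dsp* and *Pkp3* among the most even.

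The members not described one by one below are given by their range over the 7 libraries. Among adherens genes, the P-cadherin gene *Cdh3* lay between 192 and 249 CPM, *Ctnnb1* between 472 and 536 CPM and *Ctnnd1*, a catenin that stabilises cadherins, between 308 and 387 CPM. Among desmosome genes, *Jup* lay between 1248 and 1634 CPM, *Pkp1* between 1326 and 1717 CPM, *Pkp3* between 314 and 369 CPM and *Pkp2* between 0.370 and 3.603 CPM. The desmosomal cadherins *Dsg3* and *Dsc3* lay between 535 and 717 CPM and between 2380.4 and 2862 CPM, and *Dsg1b* between 129.9 and 186 CPM. None of these genes was called in any comparison of all libraries. Among tight junction genes, the scaffold *Tjp1* lay between 173 and 223 CPM, occludin *Ocln* between 28.3 and 59.1 CPM, the tricellular protein gene *Marveld2* between 11.4 and 29.8 CPM and cingulin *Cgn* between 6.66 and 20.2 CPM. *Cldn12* lay between 11.7 and 19.5 CPM and *Cldn23* between 0.119 and 1.02 CPM. These members were not called in the main fits either, although *Jup*, *Dsg3*, *Ocln*, *Marveld2* and *Cgn* each passed in a comparison with 1 library left out. *Cgn* also passed with no filter on low counts, in the difference between the wound responses of the genotypes (-1.28).

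**Figure D1:**
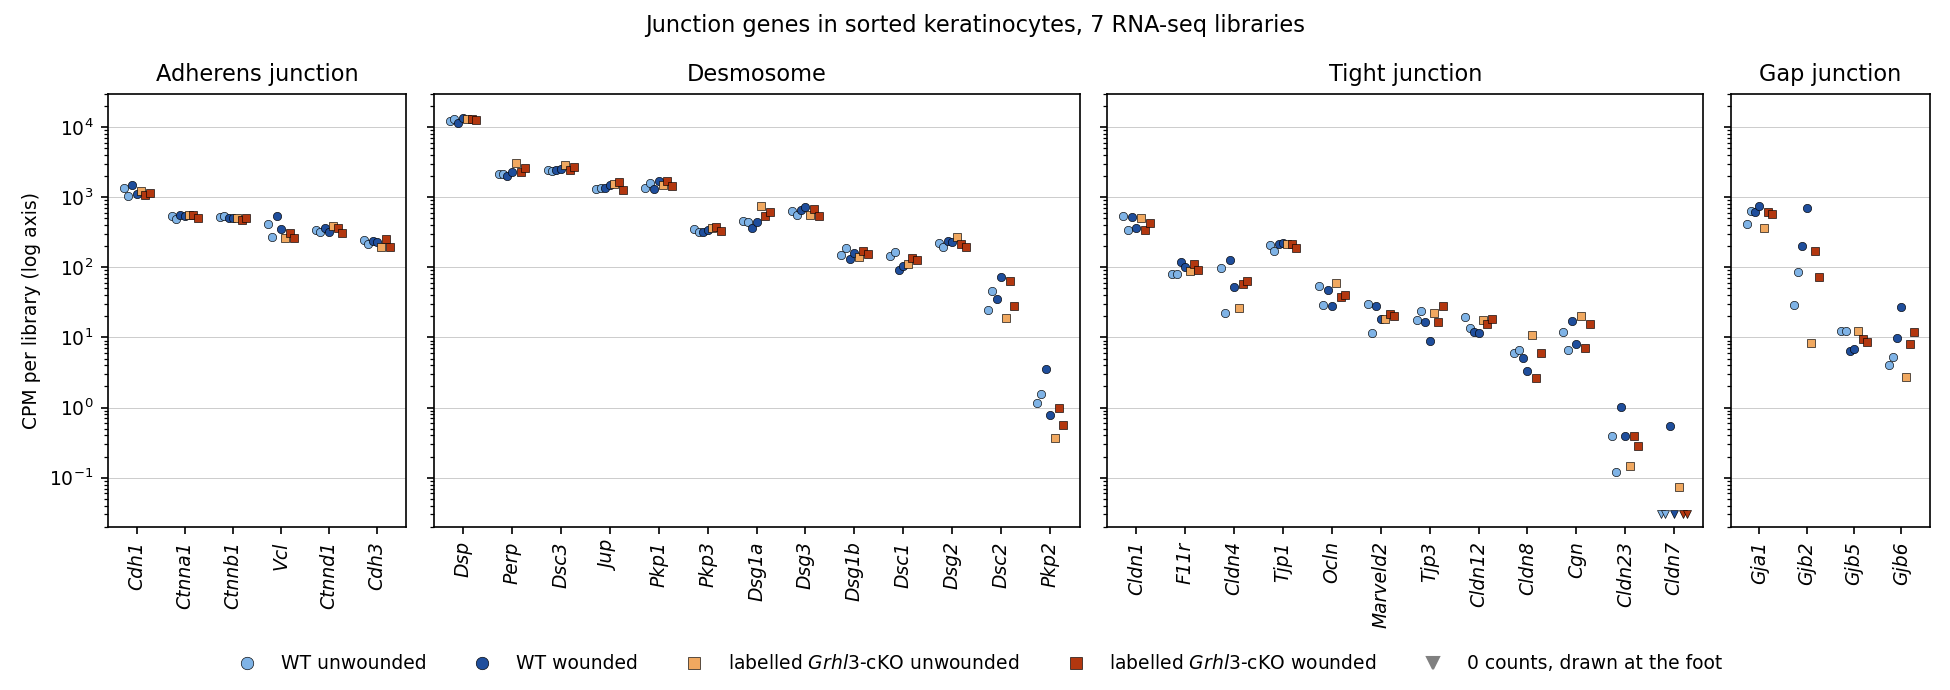
CPM of each of the 35 junction genes (log axis) in each of the 7 RNA-seq libraries, 1 symbol per library, ordered within each junction type by mean CPM per kilobase of exon. Libraries lie close together for *Dsp*, *Ctnna1* and *Ctnnb1*, while *Gjb2* runs from 8.30 CPM in the unwounded library labelled *Grhl3*-cKO to 706 CPM in WT wounded replicate 2.

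Summed by junction type, desmosome genes had 21532 and 22429 CPM in WT unwounded, 20423 and 23433 CPM in WT wounded, and 23995, 23356 and 22518 CPM in the libraries labelled *Grhl3*-cKO, the unwounded one first. Adherens genes had 3402 and 2872 CPM, 3687 and 3074 CPM, and 3122, 3018 and 2918 CPM in the same order, and tight junction genes 1075 and 711 CPM, 1119 and 818 CPM, and 976, 825 and 897 CPM. These 3 sums overlapped between wounded and unwounded WT libraries. Gap junction genes had 460.1 and 730.4 CPM in WT unwounded, 823 and 1478 CPM in WT wounded, and 387, 813 and 669 CPM in the libraries labelled *Grhl3*-cKO. Every wounded library of a genotype was above the unwounded libraries of that genotype for this sum, which *Gja1* and *Gjb2* together made up almost entirely.

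The comparison of WT wounded with WT unwounded keratinocytes asks how junction genes respond to a wound. The connexin genes *Gjb2* and *Gjb6* were higher in both wounded libraries, by 3.02 and 2.01 on the log2 scale, and the tight junction gene *F11r* was higher by 0.47. The desmosomal cadherin *Dsc1* was lower, with a log2 fold change of -0.63, and the connexin gene *Gjb5* was lower with -0.88. *Cdh1*, *Ctnna1*, *Dsp*, *Perp* and *Cldn1*, named for their abundance or their role, had log2 fold changes between 0.00 and 0.15 and no call. At an unadjusted P under 0.05 in edgeR's quasi-likelihood test (two-sided), 3 of 34 members tested were higher, against 3.18% of the 14045 genes tested, and 2 were lower, against 1.67%.

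After Benjamini-Hochberg adjustment over all genes tested, 0 members passed 0.05 in edgeR's quasi-likelihood test, where 5 passed the unadjusted threshold and 0.0285% of all genes passed the adjusted one. DESeq2 gave 0 members as well, and edgeR's likelihood ratio test gave 2. With the replicate number added as a block edgeR gave 1, *Gjb2*, though the labels do not say that a number marks a mouse. With no filter on low counts edgeR's quasi-likelihood test gave 2 members, but calls without the filter are not relied on. Without WT wounded replicate 1, which leaves 1 library in that group, the log2 fold change of *Gjb6* was 2.56. Libraries of the groups did not overlap for 9 higher members, against 15.2% of genes tested, and for 6 lower members, against 18.3%. The median log2 fold change was 0.10 over the members tested and 0.00 over all genes tested. By junction type, the median was 0.10 for adherens, 0.05 for desmosome, 0.20 for tight and 1.20 for gap junction genes. With 2 libraries on each side the smallest p of an exact permutation is 0.333, so each call leans on edgeR's estimate of spread, which is pooled over genes.

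The gap junction genes *Gjb2* and *Gjb6* showed the largest log2 fold changes of the members tested in WT. *Gjb2*, a connexin whose mutations cause deafness with skin disease, had 29.4 and 84.9 CPM in WT unwounded and 201 and 706 CPM in WT wounded keratinocytes. The unwounded library labelled *Grhl3*-cKO had 8.30 CPM and the wounded ones 173 and 73.0 CPM. Wounded libraries lay above unwounded ones in WT, and the wounded library with the least, replicate 2 labelled *Grhl3*-cKO, was below WT unwounded replicate 2. The WT difference was 3.02 on the log2 scale (standard error, SE, 0.53, 95% interval 1.89 to 4.15, unadjusted P = 3.68e-05), and the adjusted p was 0.0862 by edgeR quasi-likelihood and Benjamini-Hochberg. It was 1.83 without WT wounded replicate 2.

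*Gjb6*, which encodes another connexin and lies beside *Gjb2* on chromosome 14, had 4.003 and 5.30 CPM in WT unwounded and 9.97 and 26.9 CPM in WT wounded keratinocytes. In the libraries labelled *Grhl3*-cKO it had 2.74 CPM unwounded and 8.01 and 11.8 CPM wounded. All wounded libraries were above all unwounded ones. In WT the log2 fold change was 2.01 (SE 0.46, 95% interval 1.04 to 2.98, unadjusted P = 0.000478, adjusted p = 0.241 by edgeR quasi-likelihood and Benjamini-Hochberg), and without WT wounded replicate 2 it was 1.11. WT wounded replicate 2, the library with the most *Gjb2* and *Gjb6*, was also the highest in wound keratins (9644 CPM), and what that contributes was not tested.

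*Gjb5*, a connexin of stratified epithelia, went the other way. It had 12.5 and 12.2 CPM in WT unwounded, 6.42 and 6.75 CPM in WT wounded, 12.5 CPM in the labelled *Grhl3*-cKO unwounded library and 9.46 and 8.61 CPM in the wounded ones. Every wounded library was below every unwounded one. The WT log2 fold change was -0.88 (SE 0.35, unadjusted P = 0.0229), and the call ended when any of the WT libraries was left out, with -0.85 without WT unwounded replicate 1, -0.91 without unwounded replicate 2, -0.85 without wounded replicate 1 and -0.94 without wounded replicate 2. *Gja1*, the most abundant connexin gene per kilobase here, had 414 and 628 CPM in WT unwounded, 605 and 738 CPM in WT wounded, 363 CPM in the labelled *Grhl3*-cKO unwounded library and 623 and 575 CPM in the wounded ones. Its WT groups overlapped, and its log2 fold change of 0.39 (SE 0.19, unadjusted P = 0.0535) did not pass. *Gja1* was near the threshold, since it passed unadjusted with RLE size factors in edgeR (0.40), by DESeq2 (0.40), without WT unwounded replicate 2 (0.71) and without WT wounded replicate 1 (0.53).

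Among the desmosome genes, *Dsc1*, a desmosomal cadherin of the upper layers of the epidermis, was the member called. It had 145 and 164 CPM in WT unwounded, 91.4 and 105 CPM in WT wounded, 111 CPM in the labelled *Grhl3*-cKO unwounded library and 136 and 128 CPM in the wounded ones. Both WT wounded libraries were the lowest of all 7, as they were for the suprabasal markers, whose part was not tested. The log2 fold change was -0.63 (SE 0.17, 95% interval -0.99 to -0.26, unadjusted P = 0.00237), with an adjusted p of 0.517 by edgeR quasi-likelihood and Benjamini-Hochberg. Leaving out any 1 library kept it between -0.75 and -0.53.

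The most abundant desmosome genes had no call in WT. *Dsp* had 12257 and 13042 CPM in WT unwounded, 11462 and 13418 CPM in WT wounded, 12849 CPM in the labelled *Grhl3*-cKO unwounded library and 13116 and 12619 CPM in the wounded ones, with a WT log2 fold change of 0.00 (95% interval -0.26 to 0.26). *Perp* had 2150.2 and 2151 CPM, 1970.3 and 2273 CPM, 3078 CPM, and 2288 and 2574 CPM in the same order, with a WT log2 fold change of 0.01 (95% interval -0.29 to 0.30). The unwounded library labelled *Grhl3*-cKO stood apart as the highest in *Perp*. *Dsc2*, another desmosomal cadherin, had 24.7 and 46.4 CPM in WT unwounded, 35.5 and 72.4 CPM in WT wounded, 18.9 CPM in the labelled *Grhl3*-cKO unwounded library and 64.1 and 27.9 CPM in the wounded ones. Its groups overlapped in WT, with a log2 fold change of 0.63 (SE 0.39), which was called without WT unwounded replicate 2 (1.14) or WT wounded replicate 1 (1.06). *Dsg2*, whose product is found mainly in basal cells, had 218 and 198 CPM, 241 and 226 CPM, 271 CPM, and 216 and 197 CPM, with a WT log2 fold change of 0.19 (SE 0.16).

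Desmosomal and classical cadherins differ by layer, so they were also read in that order. The basal-enriched genes *Cdh3*, *Dsg2*, *Dsg3* and *Dsc3* had a median WT log2 fold change of 0.12, and their summed level was 3565 and 3347 CPM in WT unwounded and 3592 and 3656 CPM in WT wounded keratinocytes. The suprabasal-enriched genes *Dsg1a*, *Dsg1b* and *Dsc1* had a median of -0.18, and summed to 757 and 789 CPM in WT unwounded and 583 and 709 CPM in WT wounded keratinocytes. Of the basal-enriched genes 0 were called, and of the suprabasal-enriched ones *Dsc1* alone. Suprabasal markers were lower in the same wounded libraries (3345 and 4964 CPM against 5843 and 6519 CPM), and their part was not tested. *Dsg1a* and *Dsg1b* are near-identical copies of a gene, and counting may have split or dropped their reads, so their values are uncertain.

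Tight junction genes gave a single call. *F11r*, which encodes a junctional adhesion molecule of the immunoglobulin family, had 80.4 and 81.2 CPM in WT unwounded and 119 and 101.05 CPM in WT wounded keratinocytes. The libraries labelled *Grhl3*-cKO had 88.2 CPM unwounded and 109.9 and 91.8 CPM wounded. Within each genotype every wounded library was above the unwounded ones. The WT log2 fold change was 0.47 (SE 0.18, unadjusted P = 0.0217), and the call ended without WT unwounded replicate 1 (0.47), WT unwounded replicate 2 (0.46) or WT wounded replicate 1 (0.35).

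Claudins, the strand-forming proteins of the tight junction, did not pass in WT in the main fit of all libraries. Other fits of all libraries called *Cldn4*, with no filter on low counts (0.6) and with the replicate number added as a block (0.74). *Cldn1*, which the epidermal barrier requires, had 547 and 343 CPM in WT unwounded, 529 and 363 CPM in WT wounded, 497 CPM in the labelled *Grhl3*-cKO unwounded library and 342 and 423 CPM in the wounded ones. Replicates 1 were above replicates 2 in both WT groups, and the log2 fold change was 0.02 (SE 0.22, 95% interval -0.44 to 0.49). *Cldn4* had 98.0 and 22.6 CPM in WT unwounded, 129 and 52.7 CPM in WT wounded, 25.9 CPM in the labelled *Grhl3*-cKO unwounded library and 58.6 and 64.4 CPM in the wounded ones, with a WT log2 fold change of 0.61 (SE 0.47), which was called without WT unwounded replicate 1 (2.04) or WT wounded replicate 2 (1.10). *Cldn8* had 6.07 and 6.54 CPM, 5.10 and 3.37 CPM, 10.9 CPM, and 2.63 and 6.02 CPM in that order, with a WT log2 fold change of -0.55 (SE 0.50). In *Cldn4* the WT unwounded replicates lay farther apart than the group means did. *Tjp3*, a scaffold of the tight junction plaque, had 17.5 and 23.9 CPM in WT unwounded, 16.6 and 8.95 CPM in WT wounded, 22.004 CPM in the labelled *Grhl3*-cKO unwounded library and 16.5 and 28.4 CPM in the wounded ones. Its WT groups did not overlap, and its log2 fold change of -0.67 (SE 0.35, unadjusted P = 0.0712) did not pass, but did without WT unwounded replicate 1 (-0.87) or WT wounded replicate 1 (-1.18).

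In the main fit of all libraries, adherens junction genes had 0 calls in WT at an unadjusted P under 0.05 by edgeR's quasi-likelihood test. DESeq2 gave 0 as well. Other edgeR fits of all libraries called *Vcl*, with no filter on low counts (0.39) and with the replicate number added as a block (0.39). *Cdh1*, the E-cadherin that ties keratinocytes to each other, had 1346 and 1037 CPM in WT unwounded, 1476 and 1123 CPM in WT wounded, 1219 CPM in the labelled *Grhl3*-cKO unwounded library and 1063 and 1148 CPM in the wounded ones. The WT groups overlapped, as did the wounded groups, while the unwounded library labelled *Grhl3*-cKO lay above both wounded ones of that label. Its WT log2 fold change was 0.15 (SE 0.17, 95% interval -0.21 to 0.51). *Ctnna1*, which links cadherin complexes to actin, had 533 and 489.6 CPM in WT unwounded, 564 and 538 CPM in WT wounded, 561 CPM in the labelled *Grhl3*-cKO unwounded library and 565 and 497 CPM in the wounded ones, a log2 fold change of 0.13 (SE 0.16) in WT. *Vcl*, whose product vinculin joins the complex under tension, had 419 and 274 CPM, 546 and 349.6 CPM, 259.9 CPM, and 308 and 265 CPM in that order, and a WT log2 fold change of 0.39 (SE 0.22), which was called without WT unwounded replicate 1 (0.74) or WT wounded replicate 2 (0.66). WT wounded replicate 1 stood out as the highest in *Vcl*. Signs of small differences turned with single libraries, as for *Cdh1* without WT unwounded replicate 2 (-0.04) or WT wounded replicate 1 (-0.06), *Cldn1* without the same libraries (-0.28 and -0.27), and *Perp* without WT unwounded replicate 2 (-0.01) or WT wounded replicate 2 (-0.12).

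**Figure D2:**
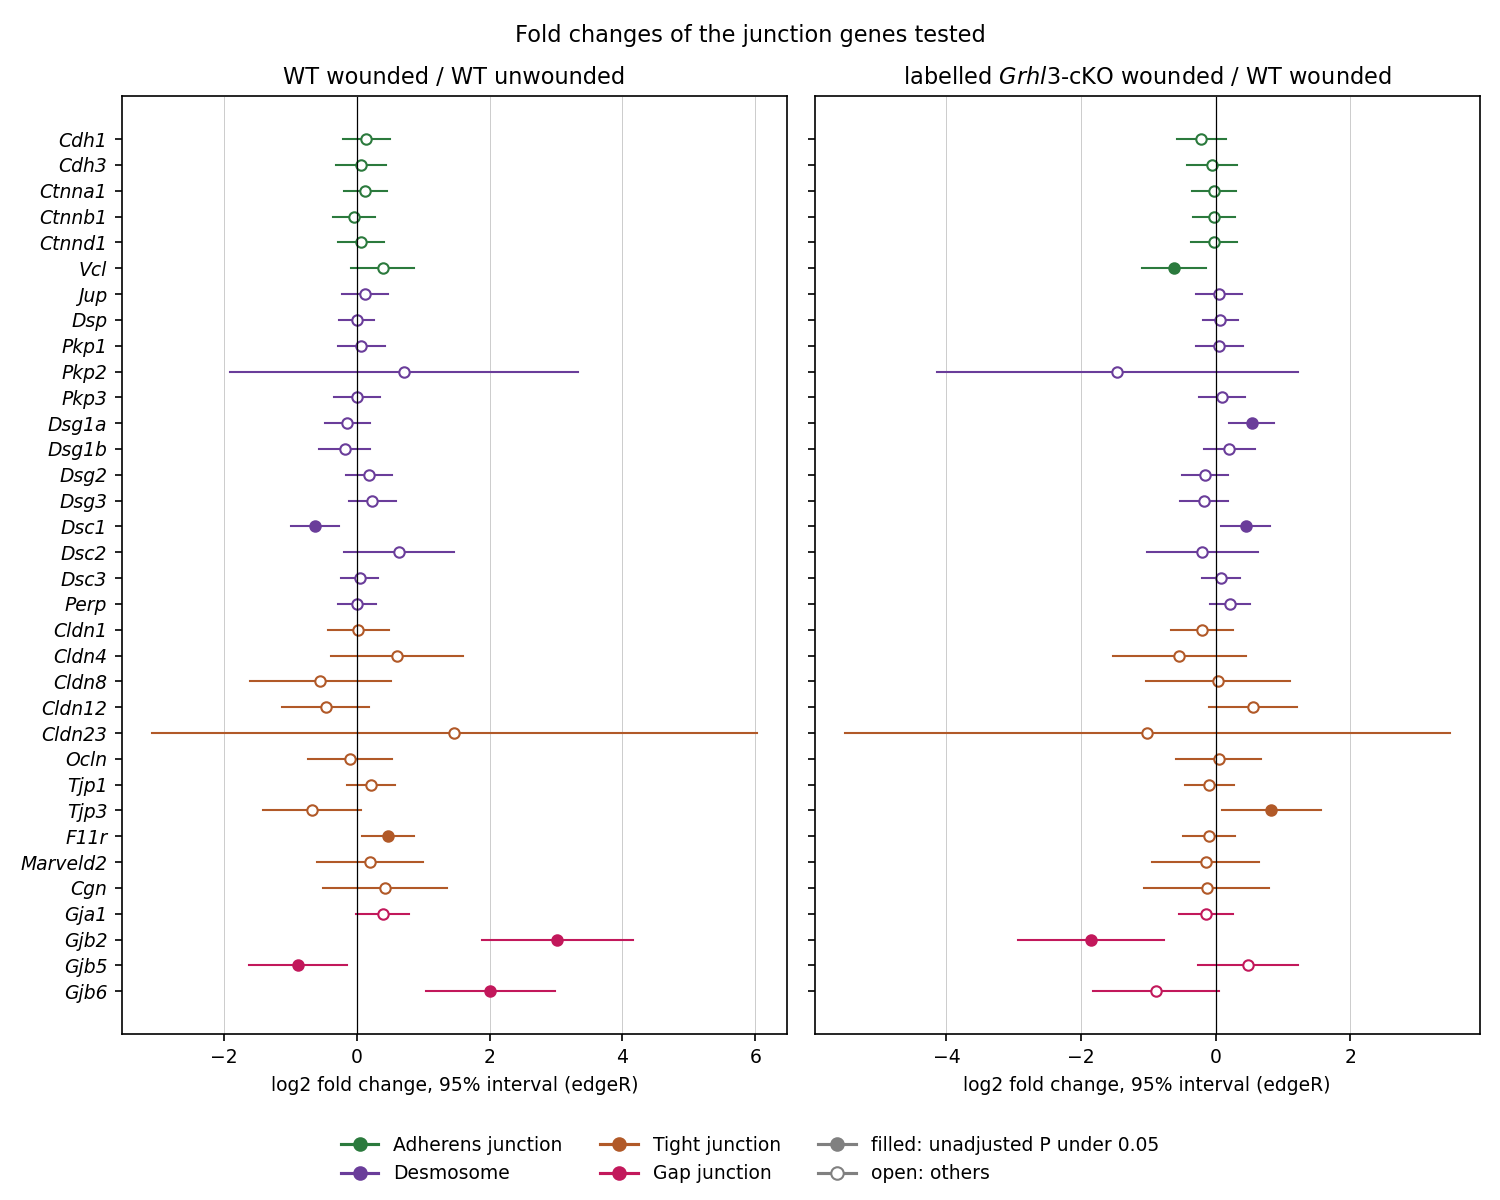
Log2 fold changes (horizontal axis) of the 34 junction genes tested, with 95% intervals from edgeR, for WT wounded over WT unwounded (left) and wounded libraries labelled *Grhl3*-cKO over WT wounded (right), coloured by junction type and filled where the unadjusted P was under 0.05. *Gjb2* lies at 3.02 on the left and at -1.85 on the right, while intervals of most adherens and desmosome genes include 0.

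The comparison of wounded keratinocytes labelled *Grhl3*-cKO with WT wounded keratinocytes asks which junction genes differ by genotype at the wound front. *Gjb2* was lower in the libraries labelled *Grhl3*-cKO, at 173 and 73.0 CPM against 201 and 706 CPM, with a log2 fold change of -1.85, and *Vcl* was lower with -0.62. The suprabasal desmosomal cadherins *Dsg1a* and *Dsc1* were higher by 0.53 and 0.45 on the log2 scale, and *Tjp3* was higher by 0.82. The log2 fold changes of *Cdh1* (-0.21, 95% interval -0.57 to 0.15), *Ctnna1* (-0.03), *Dsp* (0.07) and *Cldn1* (-0.20, 95% interval -0.66 to 0.26) were not called. At an unadjusted P under 0.05 by edgeR's quasi-likelihood test, 3 of 34 members were higher, against 1.96% of genes tested, and 2 were lower, against 2.08%.

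Of the same 34 members, 0 had an adjusted p under 0.05 by edgeR quasi-likelihood and Benjamini-Hochberg, against 5 at an unadjusted P under 0.05, and 0.0% of all genes passed the adjusted threshold. By DESeq2, 4 members passed unadjusted and 0 adjusted, the likelihood ratio test gave 0 adjusted, and edgeR's quasi-likelihood test with no filter on low counts gave 1. Without WT wounded replicate 1 the number called unadjusted was 3, of which *Gjb2* (-2.49) also passed with adjustment, and without wounded replicate 2 labelled *Grhl3*-cKO it was 2. Groups did not overlap for 5 members higher in libraries labelled *Grhl3*-cKO, against 13.8% of genes tested, and for 4 lower ones, against 17.2%. The median log2 fold change was -0.04 over the members tested and -0.01 over all genes tested, and by junction type -0.04 for adherens, 0.07 for desmosome, -0.10 for tight and -0.51 for gap junction genes. Signs turned for *Cldn1* (0.09) and *Dsp* (-0.04) without WT wounded replicate 1, and for *Ctnna1* (0.10) without wounded replicate 2 labelled *Grhl3*-cKO.

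The gap between the genotypes in *Gjb2* was -1.85 (SE 0.51, 95% interval -2.93 to -0.77, unadjusted P = 0.00224, adjusted p = 1 by edgeR quasi-likelihood and Benjamini-Hochberg). Both libraries labelled *Grhl3*-cKO were below both WT libraries, yet WT wounded replicate 1 (201 CPM) and wounded replicate 1 labelled *Grhl3*-cKO (173 CPM) lay close to each other. The difference was -0.66 without WT wounded replicate 2 and -1.34 without wounded replicate 2 labelled *Grhl3*-cKO, and neither was called, while it was -2.64 without wounded replicate 1 labelled *Grhl3*-cKO. DESeq2 gave an unadjusted P of 0.0633. *Gjb6* was at 9.97 and 26.9 CPM in WT wounded and at 8.01 and 11.8 CPM in the wounded libraries labelled *Grhl3*-cKO, which overlapped, and its log2 fold change of -0.88 (SE 0.44, unadjusted P = 0.0629) did not pass, but did without WT wounded replicate 1 (-1.43). *Gja1* had -0.14 and *Gjb5* had 0.48, both without a call.

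*Dsg1a*, the desmosomal cadherin of suprabasal layers, had 462 and 439 CPM in WT unwounded, 361 and 443 CPM in WT wounded, 755 CPM in the labelled *Grhl3*-cKO unwounded library and 544 and 605 CPM in the wounded ones. All libraries labelled *Grhl3*-cKO were above all WT libraries. Between the wounded groups the log2 fold change was 0.53 (SE 0.16, unadjusted P = 0.00383), or 0.39 without WT wounded replicate 1, which was not called. For *Dsc1* it was 0.45 (SE 0.17, unadjusted P = 0.0202), and the call ended without WT wounded replicate 1 (0.35) or without wounded replicate 1 labelled *Grhl3*-cKO (0.38). The suprabasal-enriched genes, *Dsg1b* included, had a median log2 fold change of 0.45 and summed to 853 and 889.6 CPM, against 583 and 709 CPM in WT wounded. Suprabasal markers were higher in the same libraries (6196 and 7808 CPM against 3345 and 4964 CPM), and their part in these differences was not tested. The basal-enriched genes had a median of -0.10.

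*Vcl* and *Tjp3* were the other members called between the genotypes. WT wounded replicate 1, the highest in *Vcl*, was also the highest in mural (30.6 CPM) and endothelial genes (22.8 CPM), whose part was not tested. The log2 fold change of *Vcl* was -0.62 (SE 0.22, unadjusted P = 0.0146), with -0.26 without WT wounded replicate 1 and -0.48 without wounded replicate 2 labelled *Grhl3*-cKO, where the call ended. That of *Tjp3* was 0.82 (SE 0.35, unadjusted P = 0.0304). The *Tjp3* groups overlapped, and the call ended when replicate 2 of either wounded group was left out, WT (0.46) or labelled *Grhl3*-cKO (0.43), while leaving out WT wounded replicate 1 gave 1.33. *Perp* (0.22) and *F11r* (-0.10) had no call.

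Putting all 4 wounded libraries against all 3 unwounded ones, with genotype in the model, used every library but shares its samples with the WT comparison and holds the library of the other sex. All 4 gap junction genes were called. *Gjb2* was higher by 3.32 on the log2 scale (95% interval 2.30 to 4.35), *Gjb6* by 1.94 (95% interval 1.16 to 2.72) and *Gja1* by 0.52 (95% interval 0.18 to 0.86), and *Gjb5* was lower with -0.72 (95% interval -1.29 to -0.16). *Dsc2* (0.88) and *F11r* (0.36) were also higher, and the claudin gene *Cldn8* was lower (-0.88). In all, 5 of 34 members were higher, against 3.69% of genes tested, and 2 were lower, against 2.93%, at an unadjusted P under 0.05 by edgeR's quasi-likelihood test. Without wounded replicate 1 labelled *Grhl3*-cKO the number called was 4.

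Of these, *Gjb2* had an adjusted p of 0.0287 by edgeR quasi-likelihood and Benjamini-Hochberg, in a comparison where 0.0356% of genes passed. With a filter of at least 1 CPM in at least 2 libraries it was 0.101 by the same edgeR and Benjamini-Hochberg steps, and 0 members passed, against 7 unadjusted. By DESeq2, by the likelihood ratio test and, without WT wounded replicate 1, by the quasi-likelihood test, 2 members passed with adjustment, *Gjb2* and *Gjb6*. Within each genotype all wounded libraries were above the unwounded ones. Over the fits that left out 1 library, edgeR's adjusted p ran from 0.000152 to 0.334. It was above 0.05 at 0.149 without WT unwounded replicate 1, 0.291 without WT wounded replicate 2, 0.334 without the unwounded library labelled *Grhl3*-cKO, 0.0650 without wounded replicate 1 and 0.0772 without wounded replicate 2 of that label. The adjusted p of *Gjb6*, higher in all 4 wounded libraries, was 0.0746 in the fit of all libraries, by edgeR quasi-likelihood and Benjamini-Hochberg. For *Gja1* the call ended without the unwounded library labelled *Grhl3*-cKO (0.40). The median log2 fold change was 0.01 over the members and 0.01 over all genes tested, and 1.23 over the gap junction genes.

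The remaining calls of that comparison were less steady. The *Dsc2* call ended without WT unwounded replicate 1 (0.73), WT wounded replicate 2 (0.64), the unwounded library labelled *Grhl3*-cKO (0.64) or wounded replicate 1 of that label (0.60). That of *Cldn8* ended without WT wounded replicate 2 (-0.83), the unwounded library labelled *Grhl3*-cKO (-0.54) or wounded replicate 1 of that label (-0.66). For *F11r* it ended without WT unwounded replicate 1 (0.33), WT unwounded replicate 2 (0.32), WT wounded replicate 1 (0.27) or wounded replicate 1 labelled *Grhl3*-cKO (0.32).

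Wounded and unwounded libraries labelled *Grhl3*-cKO were compared with no test, since the unwounded group is 1 library of the other sex. A gene was counted where both wounded libraries were at least 2-fold from it in the same direction, in log2 CPM with a prior count of 2. *Gjb2* was 4.39 and 3.07 higher, *Gjb6* 1.53 and 2.003 higher and *Cldn4*, a claudin, 1.20 and 1.26 higher on the log2 scale. These were the 3 members counted as higher, against 5.69% of genes tested, and 0 were counted as lower, against 3.89%. Leaving out wounded replicate 2 of that label loosens the rule to 1 library. *Dsc2* (1.78) and *Pkp2* (1.19, from 15 counts against 5) were then also past it as higher, and *Cldn8* (-1.97) and *Cgn* (-1.45) as lower. The shares of all genes given here belong to the rule on both libraries. The share for the looser rule is not given, so these further members cannot be set against it.

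Whether the wound response differed between the genotypes was tested as a difference of differences. Its unwounded side labelled *Grhl3*-cKO is 1 library of the other sex, assumed to vary like the other groups, so the P values below include no measured spread of that side, and sex and wounding cannot be told apart in it. *Dsc1* had a positive difference of 0.87 on the log2 scale (95% interval 0.28 to 1.46, unadjusted P = 0.00642, adjusted p = 0.448 by edgeR quasi-likelihood and Benjamini-Hochberg). Its response was -0.63 in WT, while both wounded libraries labelled *Grhl3*-cKO, at 136 and 128 CPM, were above the unwounded one at 111 CPM. *Dsg2* had a difference of -0.59 (95% interval -1.13 to -0.05, unadjusted P = 0.0338, adjusted p = 0.666 by the same edgeR and Benjamini-Hochberg steps), which was not called without WT unwounded replicate 2 (-0.51), WT wounded replicate 1 (-0.54) or wounded replicate 2 labelled *Grhl3*-cKO (-0.49).

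At an unadjusted P under 0.05 by edgeR's quasi-likelihood test, 1 of 34 members had a positive difference, against 3.83% of genes tested, and 1 a negative one, against 2.94%. With adjustment, 0 members passed, against 0.185% of all genes, by edgeR's quasi-likelihood test and by DESeq2, each of which called 2 members unadjusted, and by the likelihood ratio test, which called 1. Leaving out WT unwounded replicate 1 or WT wounded replicate 2, which leaves 1 library in that group, gave differences of -1.8 and -1.71 for *Cgn*. The difference for *Gjb2* was 0.87 with a 95% interval of -0.93 to 2.67, or 2.07 and called without WT wounded replicate 2, and that for *Gjb6* was -0.18 with one of -1.74 to 1.38. Both intervals are wide, and *Gjb2* and *Gjb6* had higher levels in wounded than in unwounded libraries of either label.

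Other junction genes, taken from a wider list, gave a background for the members. Of 58 listed, 55 were found in the tables and 43 were tested. In WT, 3 were higher after wounding at an unadjusted P under 0.05, against 3.18% of all genes tested, and 0 were lower, against 1.67%, by edgeR's quasi-likelihood test, with a median log2 fold change of 0.03. *Cdh4*, a classical cadherin, had 5.36 and 4.64 CPM in WT unwounded, 14.7 and 10.7 CPM in WT wounded and 13.1, 12.5 and 20.4 CPM in the libraries labelled *Grhl3*-cKO, a WT log2 fold change of 1.37 (SE 0.36). *Magi3*, a junction scaffold, had 4.07 and 9.04 CPM, 14.1 and 13.7 CPM, and 5.04, 6.17 and 5.39 CPM, a WT log2 fold change of 1.11 (SE 0.43). For *Cdh4* the unwounded library labelled *Grhl3*-cKO lay within the range of the wounded libraries. *Jam2* was the other gene called, with 0 counts in 3 of the 4 WT libraries, so no fold is given.

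Between the wounded genotypes, 0 of these 43 genes were higher, against 1.96% of all genes tested, and 5 lower, against 2.08%, at an unadjusted P under 0.05 by edgeR's quasi-likelihood test, with a median log2 fold change of 0.01. *Patj*, a polarity scaffold of tight junctions listed under its older symbol *Inadl*, had 126 and 125 CPM in WT wounded and 65.0 and 88.7 CPM in the wounded libraries labelled *Grhl3*-cKO, which gave a log2 fold change of -0.69 (SE 0.18). It had 100.5 and 104 CPM in WT unwounded and 148 CPM in the unwounded library labelled *Grhl3*-cKO. *Epcam*, an epithelial adhesion molecule, had 400.3 and 266 CPM in WT wounded and 187 and 253 CPM in the wounded libraries labelled *Grhl3*-cKO, which gave a log2 fold change of -0.58 (SE 0.22). For these and the other genes called as lower, the wounded groups did not overlap. *Mpdz*, a multi-PDZ scaffold, had 67.4 and 37.6 CPM against 34.7 and 31.5 CPM, and *Lima1*, an actin-binding gene, 485 and 399.6 CPM against 333 and 338 CPM. Their log2 fold changes were -0.64 and -0.37, and that of *Magi3* was -1.24. In the comparison of all wounded with all unwounded libraries, 4 of these genes were higher, against 3.69%, and 3 lower, against 2.93%. For the difference between the wound responses, 3 were negative, *Patj* (-1.28), *Afdn* (-0.87) and *Cdsn* (-1.52), against 2.94% of all genes tested, and 0 positive, against 3.83%, at an unadjusted P under 0.05 by edgeR's quasi-likelihood test. *Panx1*, a pannexin channel gene, was between 23.7 and 39.4 CPM in every library.

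Known regulators of E-cadherin are given by level. The actin bundler *Fscn1* had 54.8 and 98.5 CPM in WT unwounded, 111 and 129 CPM in WT wounded and 33.7, 129 and 56.4 CPM in the libraries labelled *Grhl3*-cKO, the unwounded one first. *Pdpn*, a membrane glycoprotein of migrating keratinocytes, had 2.71 and 4.94 CPM, 13.2 and 49.3 CPM, and 0.222, 20.4 and 4.06 CPM in the same order. In both, the wounded libraries were above the unwounded ones of their own label. *Snai2* was between 42.0 and 62.3 CPM in every library, while *Snai1*, *Zeb1*, *Zeb2* and *Twist1* did not exceed 3.50 CPM. *Cdh1* stayed between 1037 and 1476 CPM across the same libraries.

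Open chromatin around the junction genes was read from 4 lists of ATAC-seq regions, each from 1 library, for which the study pooled 4 wounds from 2 mice. The lists held 10769 regions in WT unwounded, 36872 in WT wounded, 29364 in unwounded keratinocytes labelled *Grhl3*-cKO and 22474 in wounded ones. A region counted for a gene if it overlapped the gene body extended by 5 kb at each end by at least 1 base (mm10). Members with a region numbered 17 of 35 in WT unwounded, 34 in WT wounded, 34 in unwounded and 30 in wounded keratinocytes labelled *Grhl3*-cKO. Over all genes with coordinates the shares were 33.4%, 60.8%, 56.9% and 47.8%, and over genes that passed the filter on low counts 50.7%, 84.6%, 81.1% and 68.8%, in the same order. With 1 library per condition there is no replicate check. The name of the list of wounded keratinocytes labelled *Grhl3*-cKO lacks a tag that the others carry, and whether its regions were called in another way was not tested.

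The lists differ in length, so the count was repeated at equal length. With the 10769 regions of highest −log10 p in each list, members with a region numbered 17, 18, 20 and 17, or 48.6%, 51.4%, 57.1% and 48.6%. The shares of genes that passed the filter were 50.7%, 45.1%, 47.5% and 45.4%. Over the full lists, whose lengths differ, region density near members was 1.34, 5.41, 4.65 and 3.37 per 100 kb. For genes that passed the filter it was 1.05, 2.94, 2.46 and 1.87, in the order WT unwounded, WT wounded, and unwounded and wounded labelled *Grhl3*-cKO. *Cldn7*, which was scarcely transcribed, was in none of the full lists. In every full list were 16 members (45.7%), against 48.0% of genes that passed the filter. At equal length 8 members were in every list and 11 in none.

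**Figure D3:**
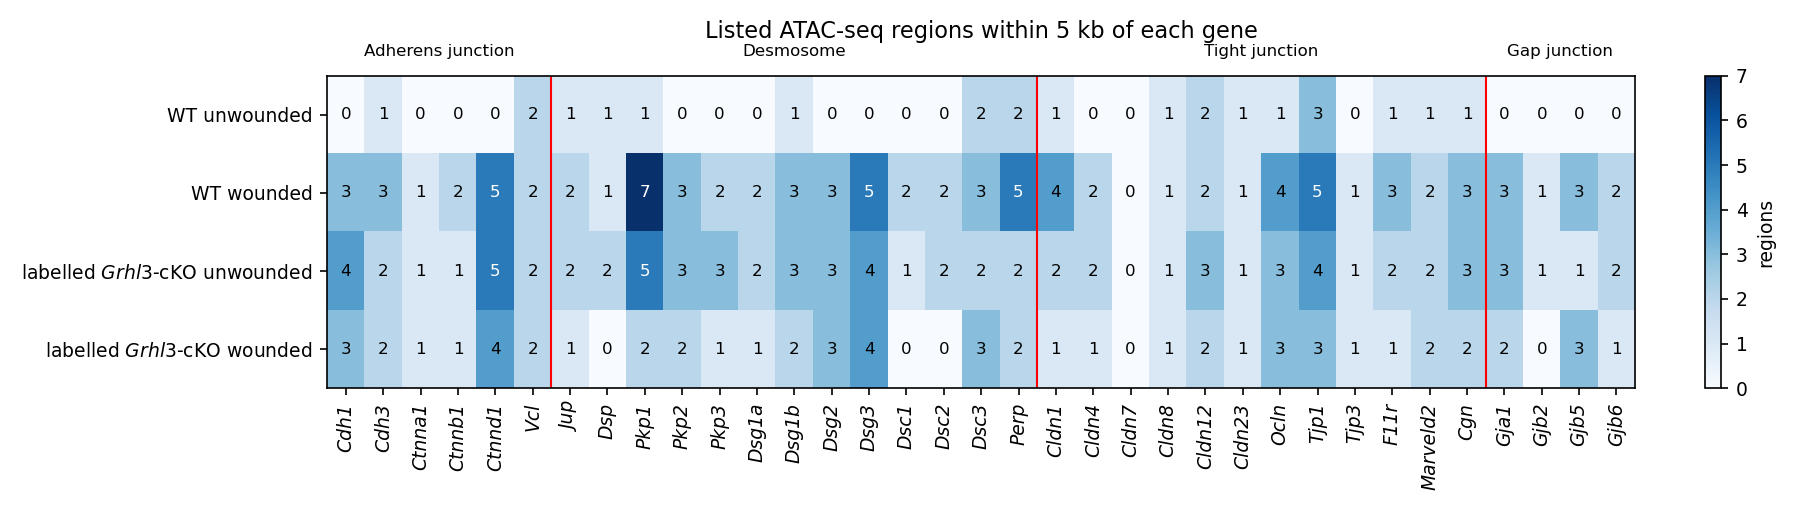
Number of listed ATAC-seq regions within 5 kb of each of the 35 junction genes in each of the 4 libraries, by junction type, darker for more. The 4 gap junction genes have 0 regions in the WT unwounded list, the shortest at 10769 regions, and *Pkp1* has 7 in WT wounded, the most of any member.

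By junction type, tight junction genes were the most often listed in WT unwounded keratinocytes, 9 of 12, followed by desmosome genes with 6 of 13, adherens genes with 2 of 6 and gap junction genes with 0 of 4. In WT wounded keratinocytes, and in unwounded ones labelled *Grhl3*-cKO, the numbers were 11, 13, 6 and 4. In wounded keratinocytes labelled *Grhl3*-cKO they were 11, 10, 6 and 3. *Dsp*, *Dsc1* and *Dsc2*, besides *Gjb2* and *Cldn7*, were without a region in the last list. With lists of equal length the gap junction genes had 0 members with a region in the first 3 conditions and 1, *Gjb5*, in wounded keratinocytes labelled *Grhl3*-cKO.

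Merged over the lists, 104 separate regions lay near members, of which 35 lay within 1 kb of an annotated start of the gene. Of these merged regions 27 were in 1 list, 27 in 2, 31 in 3 and 19 in all 4, and 10 of those in all 4 were at a start. Starts found in all 4 lists were those of *Vcl*, *Jup*, *Dsg1b*, *Dsc3*, *Perp*, *Cldn8*, *Cldn12*, *Cldn23*, *Tjp1* and *F11r*. They include *Cldn23*, a claudin with at most 1.02 CPM. The *Cdh1* start was listed once, in unwounded keratinocytes labelled *Grhl3*-cKO (fold enrichment 3.82), while 3 intron regions of *Cdh1* were each listed in all but WT unwounded keratinocytes. All Dsg and Dsc members had a listed start in WT wounded keratinocytes, with the same doubt about near-identical copies for *Dsg1a* and *Dsg1b*.

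*Gjb2* (chr14:57098600-57104702) and *Gjb6* (chr14:57123303-57133611) are neighbours on the minus strand. A region at the *Gjb2* start was listed in WT wounded keratinocytes (chr14:57104700-57105259, fold enrichment 3.73) and in unwounded keratinocytes labelled *Grhl3*-cKO (chr14:57104584-57104849, fold enrichment 3.61). The other libraries listed none there. *Gjb2* transcripts were at 173 and 73.0 CPM in wounded and 8.30 CPM in unwounded keratinocytes labelled *Grhl3*-cKO. The lists differ in length, and at equal length each had 0 regions near *Gjb2*, so listing cannot be set against transcript level here. Upstream of *Gjb6*, a region from 57137299 to 57137708 in WT wounded (fold enrichment 3.31) overlapped regions of both conditions labelled *Grhl3*-cKO, with fold enrichments of 3.84 unwounded and 4.01 wounded. A further one, from 57138440 to 57139131 (4.08), overlapped a region in unwounded keratinocytes labelled *Grhl3*-cKO (3.65).

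**Figure D4:**
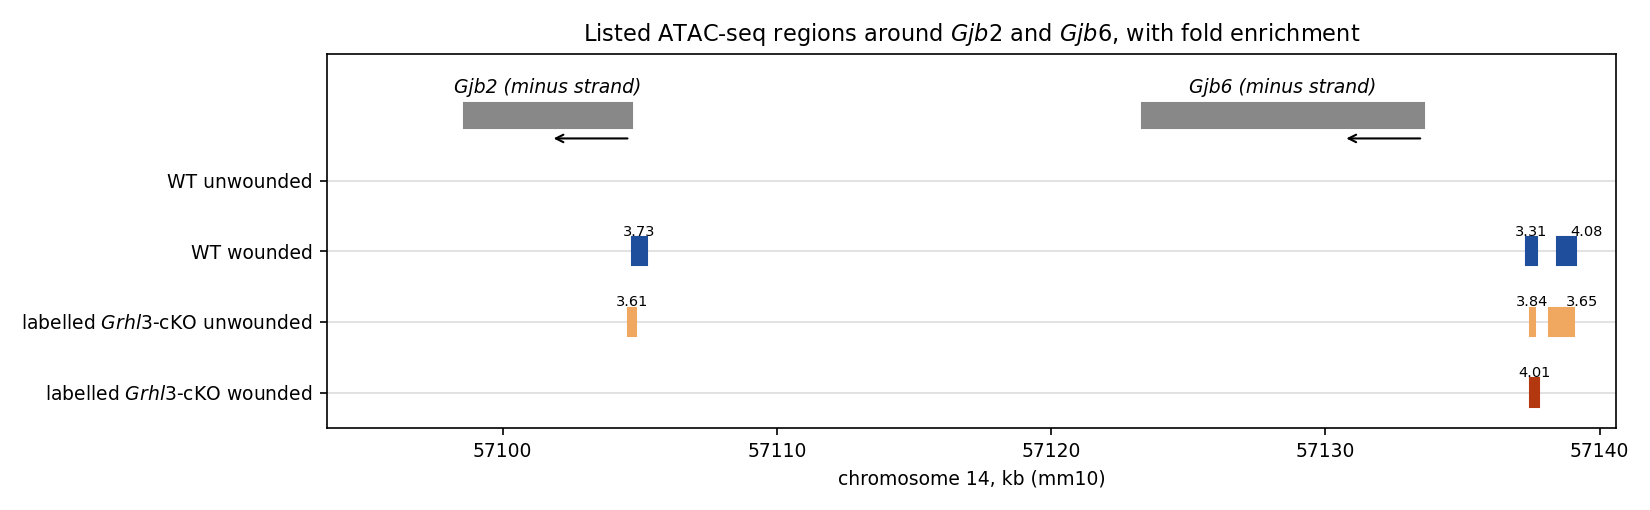
Listed ATAC-seq regions on chromosome 14 (horizontal axis, kb, mm10) around *Gjb2* and *Gjb6*, both on the minus strand, in each of the 4 libraries, with fold enrichment above each region. WT unwounded keratinocytes list none, and the *Gjb2* start is listed in WT wounded (3.73) and in unwounded keratinocytes labelled *Grhl3*-cKO (3.61).

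Short motifs were searched on both strands: AACNNGTT, the core that GRHL factors bind, TGANTCA, bound by AP-1, and the E-box CAGGTG, which SNAI and ZEB factors bind. In the 250 bases before 32851 RefSeq starts, 3.64% held the GRHL core, 6.75% AP-1 and 17.2% the E-box. RefSeq promoters matched 19 members with 27 starts, of which 2 held the GRHL core, 3 AP-1 and 7 the E-box. In the central 200 bases of listed regions, the GRHL core was in 3.92%, 4.59%, 4.42% and 4.26% of all regions in the order of the lists, and in 0 of 23, 6 of 93, 5 of 80 and 4 of 58 regions near members. AP-1 was in 19.1%, 21.6%, 20.9% and 21.9% of all regions, and in 9, 23, 17 and 19 of those near members. The E-box was in 14.9%, 16.7%, 16.7% and 15.1% of all regions and in 4, 23, 21 and 15 of those near members. A match describes these letters and does not show binding.

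Promoters of the gap junction genes called higher in wounded libraries and of *F11r* are printed because these members were called and a region was listed at the start of all but *Gjb6*. They are the 250 bases before the start, from RefSeq (GRCm38.p6, the build of mm10), 5′ to 3′ on the gene's strand, with motif matches in capitals. The *Gjb2* promoter is chr14:57104703-57104952 (minus strand) and holds an E-box. The *Gjb6* promoter is chr14:57133612-57133861 (minus strand) and holds a GRHL core. The *Gja1* promoter is chr10:56377050-56377299 (plus strand) and holds AP-1. The *F11r* promoter is chr1:171437311-171437560 (plus strand) and holds an E-box and AP-1.
Gjb2 promoter: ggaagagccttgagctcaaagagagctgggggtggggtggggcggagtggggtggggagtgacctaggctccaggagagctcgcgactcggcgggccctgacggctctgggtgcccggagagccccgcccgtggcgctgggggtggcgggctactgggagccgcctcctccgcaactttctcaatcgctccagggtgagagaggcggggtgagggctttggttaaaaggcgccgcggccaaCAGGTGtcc
Gjb6 promoter: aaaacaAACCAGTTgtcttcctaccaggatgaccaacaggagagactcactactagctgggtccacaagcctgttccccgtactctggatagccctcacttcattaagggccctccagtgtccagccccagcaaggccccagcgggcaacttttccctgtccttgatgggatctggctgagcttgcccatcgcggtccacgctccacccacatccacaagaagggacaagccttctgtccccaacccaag
Gja1 promoter: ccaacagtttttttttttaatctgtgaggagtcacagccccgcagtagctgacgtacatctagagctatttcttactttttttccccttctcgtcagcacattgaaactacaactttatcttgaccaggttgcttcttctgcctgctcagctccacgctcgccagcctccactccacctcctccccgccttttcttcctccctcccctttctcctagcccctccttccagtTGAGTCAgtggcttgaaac
F11r promoter: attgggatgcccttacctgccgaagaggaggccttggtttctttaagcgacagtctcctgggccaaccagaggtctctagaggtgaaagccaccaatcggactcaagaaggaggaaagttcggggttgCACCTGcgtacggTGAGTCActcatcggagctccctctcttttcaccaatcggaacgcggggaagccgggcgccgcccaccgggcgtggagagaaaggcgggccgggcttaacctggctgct

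Within stretches shared by at least 2 of the lists, the GRHL core was found near *Cdh1*, *Cdh3*, *Pkp1*, *Dsc1*, *Tjp3*, *Cgn* and *Gja1*. The stretches searched came from the 27 merged regions in 2 lists, 31 in 3 and 19 in all 4, though some of these gave none. They vary in length, and the share of such stretches over all genes was not computed, so no excess is read from these names. The *Tjp3* stretch lies at the start of another gene, *Pip5k1c*. The stretches of the classical cadherins, of *Pkp1* and of *Gja1* are printed to show the motif in its surroundings, on the plus strand of GRCm38.p6, with GRHL core, AP-1 and E-box matches in capitals. The *Cdh1* stretch, chr8:106615978-106616160, is intronic, was listed in all but WT unwounded keratinocytes and holds the GRHL core and AP-1. The *Cdh3* stretch, chr8:106529950-106530141, is intronic, was listed in both wounded conditions and holds the same pair of motifs. The *Pkp1* stretch, chr1:135883457-135883728, is intronic and holds all 3 motifs, and the *Gja1* stretch, chr10:56406120-56406346, lies downstream of the gene and holds the GRHL core. Both were listed in WT wounded and in unwounded keratinocytes labelled *Grhl3*-cKO.
Cdh1 stretch: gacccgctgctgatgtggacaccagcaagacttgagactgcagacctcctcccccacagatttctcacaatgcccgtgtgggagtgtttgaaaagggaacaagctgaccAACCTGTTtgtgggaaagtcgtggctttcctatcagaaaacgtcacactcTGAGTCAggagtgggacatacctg
Cdh3 stretch: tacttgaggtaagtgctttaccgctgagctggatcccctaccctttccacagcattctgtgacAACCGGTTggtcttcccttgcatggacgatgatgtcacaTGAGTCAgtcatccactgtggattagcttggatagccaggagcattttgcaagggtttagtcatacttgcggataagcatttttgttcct
Pkp1 stretch: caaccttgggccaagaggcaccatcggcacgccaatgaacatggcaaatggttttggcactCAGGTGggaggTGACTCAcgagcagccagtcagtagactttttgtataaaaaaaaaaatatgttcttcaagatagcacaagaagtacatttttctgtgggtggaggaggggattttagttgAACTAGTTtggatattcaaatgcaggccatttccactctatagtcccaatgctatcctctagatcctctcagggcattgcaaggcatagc
Gja1 stretch: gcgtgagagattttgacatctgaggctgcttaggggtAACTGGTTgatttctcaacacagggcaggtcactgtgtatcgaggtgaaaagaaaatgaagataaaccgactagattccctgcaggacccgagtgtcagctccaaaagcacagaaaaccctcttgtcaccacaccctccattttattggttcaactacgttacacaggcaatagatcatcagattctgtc

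AP-1 matches stood in some of the 19 regions found in all 4 lists. An intron region of *Vcl* held 2 matches. Those at the *Dsg1b*, *Perp* and *F11r* starts, in an intron of *Tjp1* and downstream of *Pkp1* held 1 each, and the other regions searched held 0. The share of such stretches over all genes was not computed here either.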

How the data were processed

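RNA-seq was deposited for 7 libraries and ATAC-seq for 4, of keratinocytes sorted as CD49f positive and negative for CD45, CD31 and TER119. The authors deposited raw counts per gene symbol, and the submitters' processing notes name FastQC, kallisto and mm10. The tool that made the counts, and its use of strand, is not given in the sources used here. Reads that were not unique (3.46% to 4.74%) or ambiguous (1.34% to 1.45%), and other entries that name no gene, stayed out of library totals. The ATAC-seq lists hold broad regions that the authors called with MACS2 after Trimmomatic and bowtie2. The name of 1 list lacks a tag on controls that the others carry. They deposited for each region a score, a fold enrichment (a linear ratio), and −log10 of its p and of its q.

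Libraries were grouped by their labels. The 14045 genes left by filterByExpr were fitted with edgeR 4.0.16 (R 4.3.3, limma 3.58.1) in 1 model of 4 groups, with TMM scaling, quasi-likelihood tests (two-sided) and p-values adjusted by Benjamini-Hochberg over every gene tested. For all wounded against all unwounded libraries the model had genotype and wounding as terms. The biological coefficient of variation was 31.6%. The 95% intervals are the log2 fold change and its standard error with the t quantile of the fit. The 2-fold rule used log2 CPM with TMM factors and a prior count of 2. Depth limits low genes, and a library in which 3 counts are 0.178 to 0.222 CPM cannot show less.

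Gene positions came from GENCODE vM21 (mm10). Of the symbols, 23336 matched directly, 643 by a synonym and 442 not at all. Promoters came from RefSeq (GRCm38.p6), and motifs were searched with Python 3.11.15, numpy 2.4.6, pandas 2.3.3 and pysam 0.24.0. Figures used matplotlib 3.10.9. The fits and the region windows were tested on simulated data.

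Full values are given for members with an unadjusted P under 0.05 in any tested comparison, members past the 2-fold rule, the 2 members of each junction type with the highest CPM per kilobase of exon, and *Cdh1* and *Cldn1*. Others are given by range. Lists were the layer-enriched cadherins, other junction genes, regulators of E-cadherin, and markers of keratinocytes (basal, suprabasal, of wounds), of the hair follicle and of mural, endothelial, fibroblast, leukocyte, erythroid and melanocyte cells. The members and lists were chosen with earlier results of these data known. Alternatives were other scaling, DESeq2 1.42.0, the likelihood ratio test, other filters, fewer libraries and other region thresholds and windows.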

Additional observations from a re-analysis of the deposited data

Results flagged for a closer look

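The wound response, in log2 units, of libraries labelled *Grhl3*-cKO minus that of WT was -0.59 for *Dsg2* and 0.87 for *Dsc1*. Both were picked because edgeR's test of this difference gave an unadjusted P under 0.05. *Dsg2* had 218 and 198 CPM in WT unwounded, 241 and 226 CPM in WT wounded, 271 CPM in unwounded and 216 and 197 CPM in wounded libraries labelled *Grhl3*-cKO. *Dsc1* had 145 and 164 CPM, 91.4 and 105 CPM, 111 CPM, and 136 and 128 CPM in the same order. The unwounded side of the labelled *Grhl3*-cKO response is 1 library of the other sex, so wounding and sex cannot be told apart in it. The test assumes that this library varies like the other groups, and its spread was not measured.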

How the results depend on the processing

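At an unadjusted P under 0.05, 4.84% of all genes tested were called in WT. The share was 4.04% between the wounded genotypes and 6.61% between all wounded and all unwounded libraries. The number of members called at that threshold was 5 in WT wounded against unwounded libraries, and 10 (5.57% of all genes) with no filter on low counts. Between the wounded genotypes it was 5, between all wounded and all unwounded libraries 7, and for the difference between the wound responses 2, which became 1 with the likelihood ratio test and 4 with no filter. Calls without the filter are not relied on, since the P of *Gjb2* in WT was then 1.69e-54 by the quasi-likelihood test of edgeR, which the spread of its replicates (201 and 706 CPM in WT wounded) does not bear out. At a 1.5-fold threshold *Gja1* (0.81 and 0.62) also passed as higher in libraries labelled *Grhl3*-cKO. *Ocln* (-0.63 and -0.60) and *Cldn8* (-1.97 and -0.89) passed as lower. The share of all genes at that threshold is not given here. With these members the number past the rule was 6 in place of 3. With 1 library left out, these numbers ran from 5 to 7, 2 to 5, 4 to 8, 2 to 5 and 3 to 7 in that order of comparisons. Members with a region in WT unwounded keratinocytes numbered 6 at a fold enrichment of at least 4 (17.1%, against 34.96% of genes that passed the filter) and 10 within 1 kb of a start (28.6%, against 40.2%). At that fold enrichment the other lists gave 30, 24 and 21 (85.7%, 68.6% and 60.0%, against 69.4%, 58.1% and 57.1%). At equal list length the numbers were 18 in WT wounded, and 20 and 17 in unwounded and wounded keratinocytes labelled *Grhl3*-cKO.

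With the replicate number added as a block, 8 members were called in the WT comparison (5.12% of all genes, against 4.84% with no block), *Cldn4*, *Gja1* and *Vcl* besides those named for it, and *Gjb2* passed Benjamini-Hochberg adjustment by edgeR. Blocked calls numbered 5 between the genotypes (4.24% of all genes), 6 for all wounded libraries (6.32%), where *Cldn8* (-0.83) and *F11r* (0.32) were no longer called and *Cldn4* was, and 2 for the difference (8.44%). The labels do not say that same-numbered libraries come from the same mouse, and the unwounded library labelled *Grhl3*-cKO differs in sex from both wounded ones. Its number, 2, is that of its title, while its file bears another, and the blocked fit rests on the title. Paired deviations of same-numbered libraries correlated at 0.15 for the WT groups and -0.04 for the wounded groups.

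Steadiness was tallied for members in the comparisons that called them in the main fit. *Cdh1*, *Cldn1*, *Ctnna1*, *Dsp* and *Perp* were added, in WT and between the wounded genotypes. Calls gained by other members, such as *Gja1* in WT by DESeq2 (0.40), lie outside this tally. Among the log2 fold changes tallied, 190 of the values under other settings kept direction and call and 4 lost the call. With 1 library left out, 161 kept both, 31 lost the call and 9 changed sign. Those 9 were all small: in WT, *Cdh1* (-0.06 to 0.36), *Cldn1* (-0.28 to 0.41) and *Perp* (-0.12 to 0.11), and between the genotypes *Cldn1* (-0.43 to 0.09), *Ctnna1* (-0.15 to 0.10) and *Dsp* (-0.04 to 0.21). *Dsp* in WT, at 0.00 with all libraries and so without a sign to change, ran from -0.13 to 0.11. Single values with changed sign were -0.04 and -0.06 for *Cdh1*, -0.28 and -0.27 for *Cldn1*, -0.01 and -0.12 for *Perp* in WT, and 0.09, 0.10 and -0.04 for *Cldn1*, *Ctnna1* and *Dsp* between the genotypes. The cause was not tested. Each group holds at most 2 libraries.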
